A study of Mus musculus with 12 samples.

Results

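The trans fragments of a Capture-C experiment are the restriction fragments that were found ligated to a viewpoint from another chromosome. Here the viewpoints lie at the mouse α-globin locus on chromosome 11, and the trans fragments are all listed fragments on chromosomes 1 to 10 and 12 to 19. In total, 376728 distinct trans fragments were listed at least once, of 508938 fragments listed anywhere in the 12 libraries. Each fragment was counted once per library and viewpoint, so that repeated products of 1 ligation weighed no more than a single read, and 419519 of the 772959 library, viewpoint and fragment listings were trans.

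Both genotypes were mouse embryonic stem cells of the E14TG2a.IV line, differentiated as embryoid bodies for 7 days, from which CD71+ erythroid cells were taken on magnetic columns. WT cells were unedited. D3839 cells carried replacements of the CTCF sites at HS-38 and HS-39.5 on both alleles (the labels call the sites deleted), made with a Cas9 nickase and a repair template, and WT cells carried neither. Each genotype had 3 chromatin preparations, and each preparation was captured once with oligonucleotides for the enhancers R1 and R2 (the R1 capture) and once with oligonucleotides for the promoters of Il9r, Snrnp25, Rhbdf1, Mpg and Nprl3 (the promoter capture). This gave 3 libraries per genotype and capture. The study's legend speaks of 2 independent D3839 clones, but the labels do not say which library came from which clone. In the sample titles, D3839 library 1 is named A3 and libraries 2 and 3 are named A81 and A82, and what these names stand for is not explained. The files hold no expression values, so the erythroid label could not be checked here against marker genes. The study's methods say that recognition sites of the enzyme ScaI took the place of the CTCF consensus sequences. Which bases of each 14-base site were exchanged is not stated. The methods also mention changed guide motifs in the repair template where needed. The sites read as follows, each in capitals throughout.

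HS-38: TACCCTCTGGTGGC
HS-39.5: CTGGCCACTGGGGG

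CTCF is a DNA-binding protein that stops the extrusion of chromatin loops by cohesin and so helps to set which stretches of one chromosome meet. Contacts between chromosomes do not come from loop extrusion. They depend on which chromosome territories lie next to each other and on the clustering of active, gene-rich chromatin, and active globin loci have been reported to meet in some erythroid nuclei. In proximity ligation data, trans products also hold random ligation between unconnected pieces of chromatin, which spreads over the genome with little regard to position. The enzyme DpnII cuts at GATC, and an interaction is a unique read pair that joins a fragment to a viewpoint. Libraries held 64992 to 243581 interactions, and the lists of 1 viewpoint in 1 library held 2679 to 19622 trans fragments. A share of 0 in the shortest list allows up to 0.112% of its trans fragments, and this limit and all intervals cover counting error only.

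The lists differed between libraries in ways that touch every comparison below. In the R1 capture, WT libraries shared many trans fragments with each other. For R1, WT libraries 1 and 2 shared 1422 fragments, WT libraries 1 and 3 shared 1523, and WT libraries 2 and 3 shared 2022. Over R1 and R2 this came to 11.3% to 37.7% of a list, against 1.18% to 1.75% between D3839 libraries and 0.248% to 0.974% between a WT and a D3839 library. In the promoter capture, WT pairs shared 0.931% to 3.66% of a list and D3839 pairs 0.543% to 1.88%. The excess was therefore seen between WT libraries of the R1 capture and not at that size in any other set of pairs. The trans share, the repeats, the called chromosomes and bins, the far ends of chromosomes and the β-globin density were therefore also computed without the fragments that more than 1 library of the capture listed. The fragment lengths, densest bins and window ranks below hold all fragments. The replicates are separate differentiations per the study, and no batch or lane is given by the labels, so a batch and the genotype cannot be told apart.

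The share of listed fragments that were trans was higher in WT libraries for all 7 viewpoints. For R1, the trans share was 59.8%, 65.5% and 67.6% in WT libraries 1 to 3 and 58.5%, 47.4% and 49.5% in D3839 libraries 1 to 3. The groups did not overlap, but D3839 library 1 lay close to the lowest WT library. For Nprl3, the promoter viewpoint with the highest trans share, the values were 65.2%, 64.0% and 68.1% in WT and 63.2%, 51.7% and 52.2% in D3839. The other viewpoints differed by 5.37 (Snrnp25) to 11.8 (Il9r) percentage points in the same direction, and the groups overlapped for Snrnp25 and Rhbdf1. An exact two-sided permutation test gave p = 0.1 for the 5 viewpoints without overlap, the smallest p that 3 against 3 allows, and 0.14 after Benjamini-Hochberg adjustment over the 7 viewpoints. For the enhancers the size of the difference depended on the way of counting. Without shared fragments the R1 means were 53.9% in WT and 50.1% in D3839, with overlapping groups. For R2 the direction turned: without shared fragments the D3839 mean was 0.318 percentage points above WT, and it was 2.22 points above WT when trans fragments were set against cis interactions instead of cis fragments. By that last measure R1 differed by -0.746 points (exact permutation p = 0.6), and the promoters by -10.3 to -19.2 points. That measure counts repeats on the cis side only. With repeats counted on both sides, as the percent of all interactions that were trans, R1 differed by -9.75 points and R2 by -8.97 points. The promoters then differed by -10.7 (Snrnp25) to -19.7 (Nprl3) points (exact permutation p = 0.1 for each viewpoint). Wilson 95% intervals of single trans shares were no wider than 1.31 percentage points on either side.

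Repeated interactions on a trans fragment separated the genotypes in every viewpoint, and the direction depended on the viewpoint. For R1, the percent of trans fragments with 2 or more interactions was 17.6, 33.4 and 31.7 in WT libraries 1 to 3 and 4.73, 5.12 and 5.33 in D3839 libraries 1 to 3. For R2, it was 19.7, 37.9 and 37.4 in WT and 4.33, 4.90 and 5.40 in D3839. WT library 1 was the lowest of its group for both enhancers and still lay far above all D3839 libraries. An R2 trans fragment carried 1.88 ± 0.10 interactions on average in WT, against 1.06 ± 0.01 in D3839 (SD, n = 3). Among the promoters, Il9r, Snrnp25 and Nprl3 had more repeats in WT, with means of 5.34%, 5.58% and 6.91% against 3.59%, 3.77% and 3.30% in D3839. Rhbdf1 and Mpg went the other way, with 4.50%, 5.59% and 4.91% in WT and 8.09%, 8.41% and 9.27% in D3839 for Rhbdf1. For Mpg the values were 5.93%, 6.37% and 4.25% in WT and 6.84%, 7.61% and 8.01% in D3839. In each of the 7 viewpoints the groups did not overlap and the exact permutation test gave p = 0.1, the smallest it can give, also after adjustment.

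**Figure D1:**
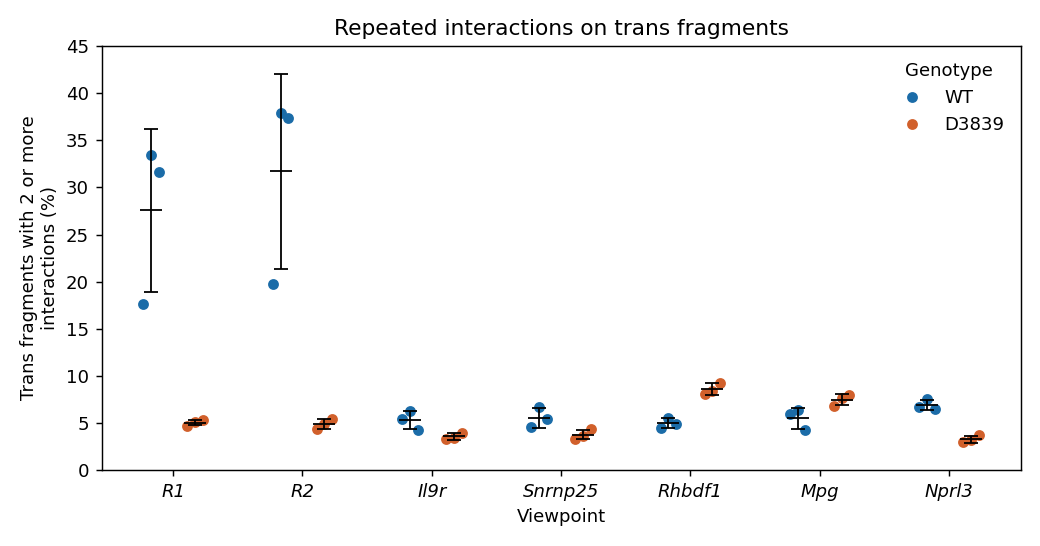
Percent of trans fragments with 2 or more interactions (y axis) for each viewpoint (x axis). Each point is 1 library and the black bars are the mean and SD of 3 libraries. WT libraries reach 17.6% to 37.9% at R1 and R2, and no other point lies above 9.27%.

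Fragments shared between libraries of a genotype mostly carried more of these repeats, and for R1 and R2 the difference between genotypes was present without them. For R2, fragments listed in 1 WT library were repeated in 31.9% of listings, those in 2 WT libraries in 36.8% and those in all 3 in 46.7%. In D3839 libraries the same shares were 4.80%, 8.20% and 25.3%. Only Nprl3 in WT did not rise at each step, with 6.86%, 5.79% and 33.3%. Leaving out every trans fragment listed in 2 or more libraries of the capture left 24.1% in WT against 4.84% in D3839 for R1, and 27.1% against 4.69% for R2. With at least 3 interactions as the limit, the means were 12.5% against 0.362% for R1 and 16.2% against 0.356% for R2. The promoters then had 0.360% to 0.525% in WT and 0.156% to 1.06% in D3839, and Snrnp25 differed by -0.0894 points with overlapping groups (exact permutation p = 0.4).

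The length of the trans fragments also differed between genotypes, while for fragments on chromosome 11 the groups overlapped in 6 of 7 viewpoints. For Il9r, the median trans fragment was 452.5, 488 and 514 bases long in WT libraries and 310, 302 and 313 bases in D3839 libraries. Over all viewpoints, medians ran from 341 to 514 bases in WT and from 245 to 332 bases in D3839, so the groups did not overlap (exact permutation p = 0.1 for each viewpoint). On chromosome 11 the medians ran from 363 to 433 bases in WT and from 379 to 415 bases in D3839. Trans fragments under 100 bases made up 11.98% to 16.4% of a WT library and 18.5% to 22.7% of a D3839 library. The part of fragment length in the differences between genotypes described below was tested only for called chromosomes and bins. This was done by keeping fragments of 200 to 600 bases, an alternative chosen after seeing the data. For the far ends of chromosomes and for β-globin it was not tested.

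Trans fragments were not spread over chromosomes in proportion to length, and chromosome 19 was the densest and chromosome 17 the next in all 12 libraries. The relative density of a chromosome is its share of a library's trans fragments divided by its share of the summed length, with length taken as the highest position listed. Chromosome 19, the shortest mouse autosome and a gene-rich one, was highest, with a mean over 12 libraries of 1.40 and a range of 1.24 to 1.59. Chromosome 17 followed with 1.22 (1.14 to 1.30) and chromosome 9 with 1.13 (1.08 to 1.19). Chromosome 1, the longest, was lowest with 0.874 (0.815 to 0.938), next to chromosome 12 with 0.885 (0.837 to 0.943) and chromosome 14 with 0.897 (0.862 to 0.969). The ranges of these lowest chromosomes overlapped, so their order is not set by these libraries. In absolute numbers, a chromosome held between 4.73 and 35.6 trans fragments per Mb, depending mostly on library depth. Chromosomes 19 and 17 lay above 1, and chromosome 1 below 1, in all 6 libraries of each of the 7 viewpoints. Across the 18 chromosomes, Spearman's rho between relative density and length was between -0.703 and -0.418 in the 12 libraries, a description over chromosomes whose density has length in its denominator.

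**Figure D2:**
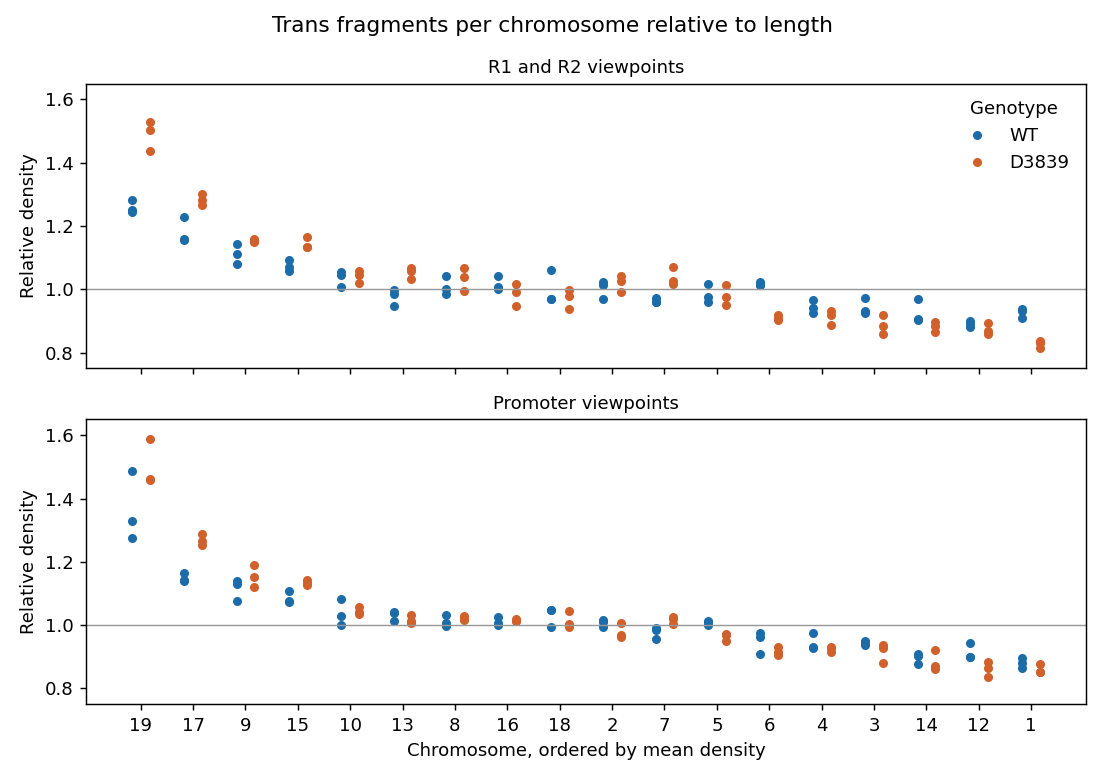
Relative density of trans fragments (y axis; 1 means in proportion to length) for each chromosome (x axis), with 1 point per library, R1 capture above and promoter capture below. Chromosome 19 lies between 1.24 and 1.59 and chromosome 1 between 0.815 and 0.938, and in the R1 capture D3839 libraries sit further from 1 than WT libraries at both.

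D3839 lists were more uneven over chromosomes than WT lists in the R1 capture. Fragment counts per chromosome were compared with edgeR's quasi-likelihood test, with the total of trans fragments as library size and an adjusted p under 0.05 as the limit. In the R1 capture 8 of 18 chromosomes (44.4%) were called, 5 higher in D3839 (27.8%) and 3 lower (16.7%). In chromosome 19, relative density was 1.26 ± 0.02 in WT and 1.49 ± 0.05 in D3839 (SD, n = 3), a log2 fold change of 0.24 ± 0.04 (SE, edgeR adjusted p = 7.23e-06). Chromosome 17 rose from 1.18 ± 0.04 to 1.28 ± 0.02, by a log2 fold change of 0.13 (edgeR adjusted p = 0.000104). Chromosome 1 fell from 0.927 ± 0.015 to 0.827 ± 0.011 (log2 fold change -0.16, edgeR adjusted p = 2.42e-06), and chromosome 6 from 1.02 ± 0.01 to 0.911 ± 0.007 (log2 fold change -0.16, edgeR adjusted p = 1.33e-06). The smaller differences of chromosomes 7, 13 and 15 (higher) and 3 (lower) were between 0.09 and 0.10 on the log2 scale. Those 4 calls were lost with DESeq2, with interactions counted as deposited, with fragments of 200 to 600 bases alone and with the replicate block (edgeR adjusted p = 0.0501 to 0.0705). Without shared fragments 8 chromosomes were called, but chromosome 13 was not among them (log2 fold change 0.03, edgeR adjusted p = 0.516). Counting interactions as deposited left 1 chromosome called, chromosome 1.

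In the promoter capture only chromosome 17 was called (5.56%, 1 higher at 5.56% and 0 lower at 0%), and it was called under all 13 alternatives run on it. Its relative density was 1.15 ± 0.01 in WT and 1.27 ± 0.02 in D3839 (SD, n = 3; log2 fold change 0.14 ± 0.02, SE, edgeR adjusted p = 0.000491). Chromosome 19 ranged from 1.27 to 1.49 in WT and from 1.46 to 1.59 in D3839 there (edgeR adjusted p = 0.0647). Leaving out WT replicate 2 or D3839 replicate 1 brought the count in this capture to 3.

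Along the chromosomes, the far ends held slightly less than their share of the length in 10 of 12 libraries and the stretch near the centromere more in all 12. Mouse chromosomes carry their centromere at the low-coordinate end, and the last 10 Mb before the highest listed position make up 7.66% of the summed length. That length includes the first 3 Mb of each chromosome, and without them the share of the length would be larger. In the R1 capture these ends held 6.93%, 7.42% and 7.27% of trans fragments in WT libraries 1 to 3 and 6.82%, 7.04% and 6.68% in D3839 libraries. In the promoter capture the values were 7.25%, 7.79% and 7.69% in WT and 7.27%, 7.09% and 6.99% in D3839. The groups overlapped in both captures (exact permutation p = 0.2 each), and the D3839 means minus the WT means were -0.361 and -0.459 percentage points. Without shared fragments the difference in the R1 capture was -0.600 points, with no overlap (exact permutation p = 0.1). The 10 Mb that follow the first 3 Mb of each chromosome, a stretch added after values were seen, held 8.84% ± 0.29 in WT and 9.36% ± 0.18 in D3839 in the R1 capture, and 8.76% ± 0.21 and 9.45% ± 0.09 in the promoter capture (SD, n = 3). All 12 libraries lay above the share of the length there, and D3839 libraries were higher than WT without overlap in both captures (exact permutation p = 0.1, the smallest possible).

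At the scale of 1 Mb, 2298 bins held at least 1 trans fragment in some library, and 2240 of them (97.5%) were occupied in all 12 libraries. In the 42 lists of single viewpoints and libraries, 315 bins (13.7%) were occupied throughout. The median bin held 0.0380% of the trans fragments of a library. The densest bin was chr9:21000001-22000000 (mm9) with 0.273% (0.177% to 0.392% over 12 libraries), or 7.20 times the median bin. It was followed by chr13:23000001-24000000 with 0.219% (0.152% to 0.420%), chr19:5000001-6000000 with 0.198% (0.125% to 0.286%), chr19:10000001-11000000 with 0.187% (0.131% to 0.267%) and chr17:29000001-30000000 with 0.169% (0.104% to 0.230%). The ranges of these 5 bins overlapped, so their order among themselves does not hold in each library. Genes in these bins were not named, since no annotation of the mm9 build was used here.

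The densest bins were in part common to viewpoints and genotypes. For each of the 14 combinations of viewpoint and genotype, the 25 densest bins were listed. The WT and D3839 lists of the same viewpoint had 7 to 16 bins in common (median 13), and lists of different viewpoints in the same genotype had 5 to 20 (median 11.5). Lists that differed in both had 6 to 17 (median 11). The bins chr13:23000001-24000000 and chr19:10000001-11000000 were among the 25 densest in all 14 lists. The bin on chromosome 9 was in 13 lists, and 17 bins were in 7 or more. At the other end, 43 bins were in a single list.

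Between genotypes, single bins were called in the R1 capture and none in the promoter capture, and the captures were not tested against each other. Of 2269 bins with at least 20 fragments over the 6 libraries of the R1 capture, 39 (1.72%) were called by edgeR, 21 higher in D3839 (0.926%) and 18 lower (0.793%). Of the 25 densest bins, 9 were called higher and 0 lower, but these bins were picked on the same libraries, D3839 included, and have the highest counts. In the promoter capture 0 of 2275 bins (0%) were called in either direction by edgeR, with 175 at an unadjusted p under 0.05, and DESeq2 also called 0, with 31 unadjusted. Bins of 5 Mb gave 3 calls in the promoter capture, and interactions as deposited and the replicate block 1 each. Without fragments listed in 2 or more libraries, 19 bins were called in the R1 capture, 14 higher and 5 lower, and with fragments of 200 to 600 bases alone 9 were called. Interactions as deposited gave 4 calls, all lower in D3839. Leaving out WT replicate 2, WT replicate 3 or D3839 replicate 1 gave 12, 7 and 25 calls.

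The bins that were lower in D3839 with the smallest p lay side by side on chromosome 6. In chr6:117000001-118000000, WT libraries 1 to 3 of the R1 capture had 18.2, 17.3 and 13.3 fragments per 10000 trans fragments and D3839 libraries 6.28, 5.58 and 6.66, a log2 fold change of -1.34 ± 0.24 (SE, edgeR adjusted p = 1.36e-05). In chr6:118000001-119000000, the values were 11.1, 7.96 and 10.2 in WT and 3.53, 2.79 and 1.45 in D3839 (log2 fold change -1.91 ± 0.32, edgeR adjusted p = 8.06e-06). In chr6:75000001-76000000, they were 3.96, 4.84 and 4.33 in WT and 0.392, 0.310 and 1.74 in D3839 (log2 fold change -2.31 ± 0.50, edgeR adjusted p = 0.00152). D3839 library 3 held most of the D3839 fragments of this last bin, and without it the log2 fold change was -3.52. No D3839 library reached a WT library in any of these bins. The first bin was called under all 15 alternatives run on it. The other two lost the call with interactions as deposited, with log2 fold changes of -1.63 and -2.06, and DESeq2 gave them no adjusted p, with log2 fold changes of -1.86 and -2.32.

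Higher in D3839 with the smallest p was chr7:29000001-30000000, with 9.51, 10.7 and 10.2 fragments per 10000 in WT and 23.5, 20.8 and 20.3 in D3839 (log2 fold change 1.05 ± 0.20, edgeR adjusted p = 0.000117). Next came the bin at chr13:23000001-24000000 that was dense in every list, with 18.2, 19.4 and 15.5 in WT and 41.97, 27.0 and 26.4 in D3839 (log2 fold change 0.83 ± 0.17, edgeR adjusted p = 0.000329). D3839 library 1 was the highest there, and the call was lost without WT replicate 3. The bin chr7:29000001-30000000 had a log2 fold change of 0.52 with fragments of 200 to 600 bases alone and 0.65 with interactions as deposited, and was not called in either. The third was chr6:47000001-48000000, with 3.17, 2.42 and 3.09 in WT and 9.81, 8.68 and 6.95 in D3839 (log2 fold change 1.54 ± 0.33, edgeR adjusted p = 0.00149). Its call was lost in 4 of the 14 alternatives that gave an adjusted p: interactions as deposited, no shared fragments, no WT replicate 2 and fragments of 200 to 600 bases. Its log2 fold change lay between 1.23 and 1.73 in those, and DESeq2 gave it no adjusted p. R1 had 1.47 ± 0.66 fragments per 10000 there in WT and 10.8 ± 3.74 in D3839, and R2 had 3.88 ± 0.89 and 6.76 ± 2.12 (SD, n = 3). With interactions as deposited, none of these higher bins was called.

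A neighbourhood on chromosome 6 was listed mainly from the R2 enhancer in WT. Of all trans fragments, chr6:117878887-117879058 had the largest excess of R2 over R1 interactions summed over both genotypes, and it was singled out for this after values were seen. R2 had 36, 88 and 81 interactions with it in WT libraries 1 to 3 and 40, 41 and 48 in D3839 libraries 1 to 3, all 6 libraries included. R1 had 10 in all, Nprl3 5, Mpg 1 and the other promoters 0. The fragment next to it, chr6:117878717-117878886, which had the larger R2 sum of the pair in WT, was listed for R2 alone, with 71, 67 and 97 interactions in WT and 4, 5 and 3 in D3839. Per 10000 R2 trans interactions of the library, the leading fragment had 26.2, 26.4 and 22.9 in WT and 25.6, 20.8 and 22.98 in D3839, so the genotypes overlapped. Its neighbour had 51.8, 20.1 and 27.4 in WT and 2.56, 2.54 and 1.44 in D3839, without overlap. Set against trans fragments in place of interactions, WT was above D3839 at the leading fragment too (42.9 to 52.4 against 22.0 to 26.9 per 10000), with 1.88 interactions per R2 trans fragment in WT and 1.06 in D3839.

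The R2 signal was not limited to that pair of fragments. Within 20 kb of the leading fragment, R2 had 37 other fragments over its 6 libraries and no other viewpoint more than 3. In a 200 kb window around it, R2 had 24.8, 22.0 and 15.9 fragments per 10000 trans fragments in WT libraries 1 to 3 and 4.70, 5.38 and 2.55 in D3839 libraries 1 to 3. R1 had 0, 3.31 and 2.23 in WT and 1.89, 1.46 and 2.01 in D3839. In the WT libraries R2 held 86 of the 106 listings of all 7 viewpoints in the window, and in the D3839 libraries 22 of 60, where single lists of Snrnp25 (up to 5.05), Mpg (3.75), Nprl3 (3.55), Rhbdf1 (3.08) and Il9r (2.76) reached the range of R2. R2 was higher than R1 in 6 of 6 libraries, by 10.7 ± 9.83 (SD), which is a description, since the window was chosen for this difference. R2 also carried the called bin there: in chr6:117000001-118000000 it had 25.6 ± 4.70 fragments per 10000 in WT and 8.36 ± 0.95 in D3839, against 2.64 ± 2.50 and 3.17 ± 1.42 for R1 (SD, n = 3). Whether the R2 oligonucleotides match sequence at this site was not tested, as no mm9 genome was used here.

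**Figure D3:**
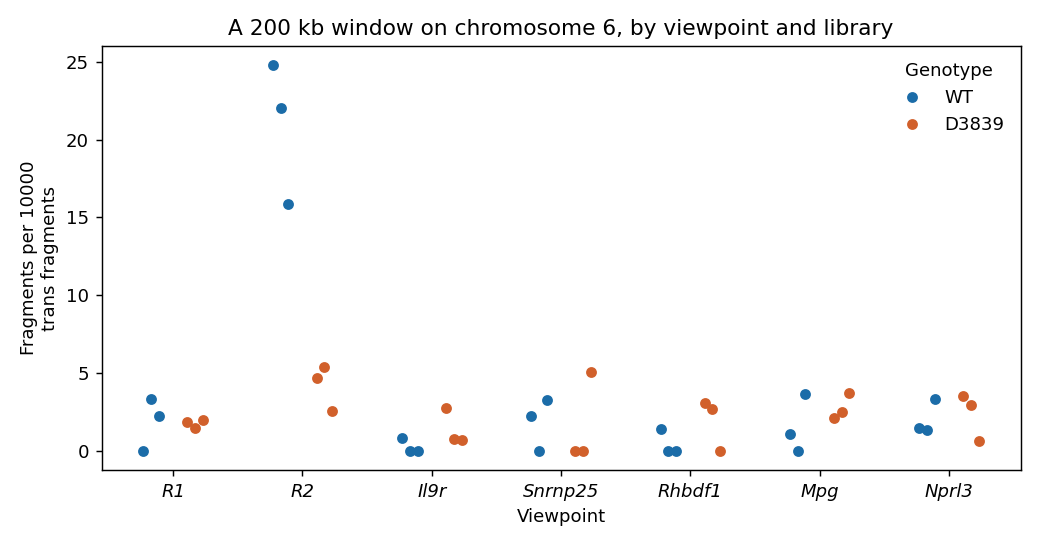
Fragments per 10000 trans fragments (y axis) in a 200 kb window centred on the leading R2 partner on chromosome 6, for each viewpoint (x axis), with 1 point per library. R2 reaches 15.9 to 24.8 in WT and 2.55 to 5.38 in D3839, and the other viewpoints stay below 5.06.

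The β-globin cluster on chromosome 7 is the other globin locus of erythroid cells. It holds the embryonic genes Hbb-y and Hbb-bh1 and the adult β-globin genes, whose products pair with α-globin chains to form haemoglobin. In the 200 kb stretch from 110.9 to 111.1 Mb (mm9), 78 trans fragments were listed, 106 times in all, 41 of them in WT and 65 in D3839 libraries. These counts are not set against list length, and D3839 lists were longer. The median list of the R1 capture held 14894 trans fragments in D3839 and 12778.5 in WT. In the promoter capture it held 10874 and 6683. R1 had 2, 2 and 6 fragments there in WT libraries 1 to 3 and 5, 8 and 5 in D3839 libraries. R2 had 1, 8 and 4 in WT and 3, 12 and 5 in D3839. Nprl3 had 6, 1 and 1 in WT and 2, 4 and 6 in D3839. All 6 libraries of these 3 viewpoints had at least 1 fragment in the stretch, and WT and D3839 overlapped in each.

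The remaining promoters gave fewer fragments. Il9r had 1, 2 and 2 in WT and 1, 3 and 1 in D3839, and Mpg had 3, 0 and 1 in WT and 3, 0 and 2 in D3839. Rhbdf1 had 0 in all WT libraries and 2, 1 and 1 in D3839, where a count of 0 allows up to 0.0423%, 0.0759% and 0.0702% of the trans fragments of the WT lists. Snrnp25, with the shortest lists, had 1 fragment in WT library 2 and 1 in D3839 library 1. These limits lie at or above the mean share of R1 in the stretch, 4.01 per 10000 trans fragments, so at this depth a lower share from Rhbdf1 than from R1 was not detectable in single WT libraries.

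Relative to the rest of chromosome 7, the stretch was dense for R1, R2 and Nprl3. For R1 it held 23.3 fragments per Mb on average against 4.93 on the rest of the chromosome, and the log2 ratio of densities, each plus 1, was 1.92 ± 0.61 (SD, n = 6), above 0 in 6 of 6 libraries. For R2 it was 1.57 ± 0.83 and for Nprl3 1.25 ± 0.80, also above 0 in 6 of 6 libraries. Exact tests over the signs of 6 libraries gave p = 0.031 for each of these, the smallest value they can give, and 0.0729 after adjustment over the 7 viewpoints, so none passed the limit of 0.05. Il9r had 0.70 ± 0.85 (5 of 6 libraries, exact p = 0.156) and Mpg 0.12 ± 1.80. Rhbdf1 (-0.40 ± 1.40) and Snrnp25 (-0.64 ± 1.47) were below 0 on average, with lists of 0 fragments entering at the added 1. As plain means, the stretch held 8.33 fragments per Mb for Il9r, 7.5 for Mpg, 3.33 for Rhbdf1 and 1.67 for Snrnp25. The rest of chromosome 7 held 4.50, 3.87, 2.67 and 1.88, so only Snrnp25 was lower in the stretch by this measure. With 1 Mb on each side as the reference, R1 had 2.21, R2 1.74 and Nprl3 1.74. Without shared fragments R1 fell to 1.14, with 5 of 6 libraries above 0, and R2 (1.46) and Nprl3 (1.26) were above 0 in 6 of 6. With interactions as deposited, R2 had 1.32 and 5 of 6.

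Among the 11735 windows of 200 kb that tile the trans chromosomes, the β-globin window ranked 63rd for R1 with 28 fragments (median window 5, highest 99) and 115th for R2 with 33 (median 7, highest 124). For Nprl3 it ranked 259th with 20 fragments, for Mpg 897th, for Il9r 1036th, for Rhbdf1 2792nd with 4 fragments (median window 3) and for Snrnp25 3978th with 2 (median window 2). It was a dense window for the enhancers and was never the densest. In the R1 capture it stood out from its surroundings: it held 3.53 ± 1.36 fragments per 10000 (SD, n = 6), and the 19 neighbouring windows had means between 0.316 and 1.61. In the promoter capture it held 1.74 ± 0.32, and the neighbours reached 1.93.

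**Figure D4:**
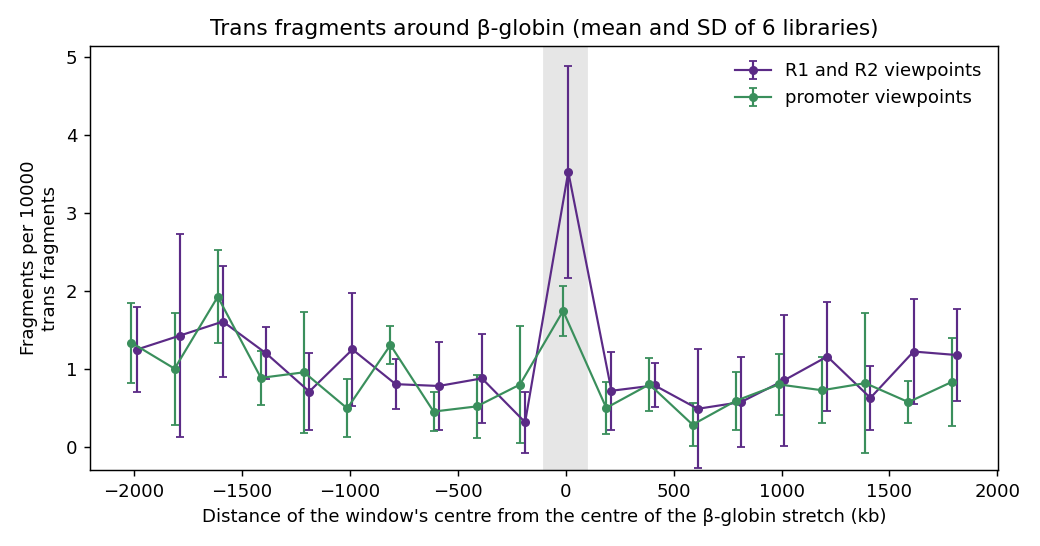
Fragments per 10000 trans fragments (y axis) in 200 kb windows by distance from the centre of the β-globin stretch (x axis, kb), for the R1 capture and the promoter capture. Points are means and bars the SD of 6 libraries, both genotypes together. The R1 capture peaks at 3.53 in the shaded stretch, where the promoter capture has 1.74.

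The 2 captures of the same chromatin were compared at β-globin after these values were seen. Per 10000 trans fragments, the R1 capture had 2.38, 3.46 and 3.09 in WT preparations 1 to 3 and 3.14, 6.20 and 2.90 in D3839 preparations. The promoter capture had 2.14, 1.54 and 1.39 in WT and 2.11, 1.54 and 1.75 in D3839. The R1 capture was higher in 6 of 6 preparations, by 1.78 ± 1.53 (SD), which is a description, since the densities of the single viewpoints prompted the comparison, with D3839 preparation 2 far above the rest. Without shared fragments, and also with interactions as deposited, it was higher in 5 of 6. Between genotypes the fragment counts of the stretch overlapped: the means were 2.98 ± 0.55 in WT and 4.08 ± 1.84 in D3839 in the R1 capture (exact permutation p = 0.5), and 1.69 ± 0.40 and 1.80 ± 0.29 in the promoter capture (exact permutation p = 0.7; SD, n = 3). Without D3839 replicate 2, which held the most fragments, the difference in the R1 capture came to 0.0414 per 10000, and with interactions as deposited and all replicates it was 1.80, with no overlap between the genotypes (exact permutation p = 0.1, the smallest possible).

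Of the 78 fragments in the β-globin stretch, 19 (24.4%) were listed in 2 or more of the 12 libraries, against 33278 of 376728 (8.83%) over all trans fragments. Of the 19, 18 had R1 or R2 among their viewpoints (94.7%), against 72.3% of all trans fragments listed in 2 or more libraries. Both shares are descriptions, as the stretch was dense and was not compared with stretches of like density. R1 and R2 held 61 of its 106 listings. The most often listed was chr7:111007929-111008141, which was listed 5 times (R1, R2, Rhbdf1 and Nprl3), 1 of them in WT and 4 in D3839. It lies between chr7:111007508-111007928, listed 3 times (R1, R2 and Nprl3), and chr7:111008142-111009073, listed 2 times (R1 and R2). Nearby, chr7:111009552-111009747 was listed 4 times (R1 and Mpg) and chr7:111009748-111010461 and chr7:111010462-111010487 2 times each. These 6 fragments lie within 3 kb, in a stretch where both genotypes had listings.

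Further along, chr7:110997879-110998072 (R1 and Rhbdf1) and chr7:111022020-111022094 (R1, R2 and Snrnp25) were listed 3 times each. The remaining fragments were listed 2 times each. Those on the low side were chr7:110919567-110919958 (Nprl3), chr7:110961969-110962815 (R1 and R2), chr7:110975595-110975977, chr7:110976455-110977138, chr7:110988558-110989412 and chr7:110991221-110991652 (R2 and Nprl3 for these 4). Those on the high side were chr7:111002452-111003149 (R1 and Il9r), chr7:111012281-111013295 (R2 and Nprl3), chr7:111018635-111018894 (R1 and Nprl3), chr7:111036941-111037846 (R2) and chr7:111089369-111089482 (R1 and Il9r). In 5 of the 19, both listings came from the same chromatin preparation, which was captured with the enhancer and the promoter oligonucleotides. No listing in the stretch had more than 3 interactions.

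Most trans fragments were seen once and a few were seen nearly everywhere. Of the 376728 fragments, 341682 (90.7%) were listed in 1 library and viewpoint and 168 (0.0446%) in 6 or more of the 42 lists. The most frequent was chr17:26438451-26438723, in 41 of the 42 lists with 395 interactions. R1 had 110 of these, R2 115, Mpg 49, Nprl3 44, Il9r 30, Rhbdf1 27 and Snrnp25 20, and the 1 list without it was one of R2. Its neighbour at some distance, chr17:26425029-26425449, was in 23 lists with 68 interactions. Chromosome 17 also carries Hba-ps4, an α-globin pseudogene, per the RefSeq gene table of GRCm38.p6; where it lies relative to these fragments in mm9 was not determined.

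The others among the 5 most listed were chr3:79362426-79362524 (29 lists, 112 interactions), chr17:35396073-35396534 (22 lists, 69 interactions) and chr8:10960472-10960519 (22 lists, 55 interactions). All 5 were seen in all 6 chromatin preparations. The fragment chr17:35396073-35396534 was seen mostly from Nprl3 (28 interactions, 6 of 6 libraries) and R2 (25 interactions, 5 libraries), and at most 8 times from any other viewpoint.

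Some frequent trans fragments belonged to single sets of preparations. Of the 168 fragments in 6 or more lists, 35 came from exactly 2 of the 6 chromatin preparations. For 34 of these, the pair was D3839 preparations 2 and 3, and for the remaining 1 it was WT preparations 2 and 3. The 13 other pairs of preparations had 0 such fragments. A further 11 were found in all 3 D3839 preparations and no WT preparation, 8 in all 3 WT preparations and no D3839 preparation, and 28 in all 6. D3839 preparations 2 and 3 thus had a set of trans partners in common that D3839 preparation 1 lacked, and these are the preparations named A81 and A82, against A3 for preparation 1. Since libraries of these 2 preparations may not be independent of each other, counts of called bins and chromosomes were repeated with their fragments summed as 1 library, an alternative chosen after seeing the data; this gave 42 bins and 8 chromosomes in the R1 capture and 0 bins and 1 chromosome in the promoter capture.

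**Figure D5:**
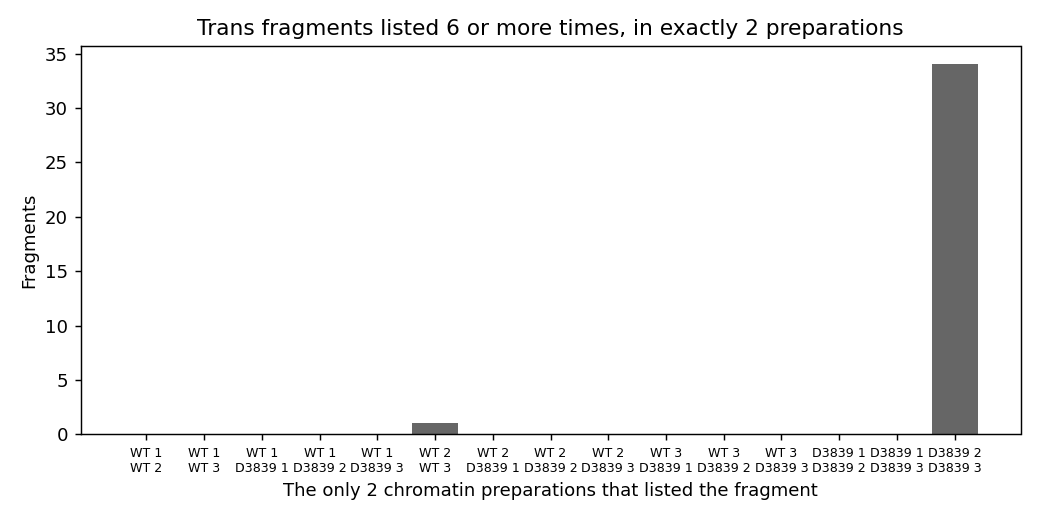
Number of trans fragments listed in 6 or more of the 42 lists and found in exactly 2 chromatin preparations (y axis), for each of the 15 possible pairs (x axis). D3839 preparations 2 and 3 have 34 fragments, WT preparations 2 and 3 have 1 and the other pairs have 0.

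A pair of fragments led this set. The fragment chr2:115327975-115328934 had 121 interactions in D3839 preparation 2 and 133 in preparation 3, from all 7 viewpoints in both, and 0 in the other 4 preparations. R2 and Il9r had 51 each, R1 43, Rhbdf1 41, Mpg 39, Snrnp25 16 and Nprl3 13. The 18-base fragment chr5:17422100-17422117 had 88 and 78 interactions in the same 2 preparations, again from all 7 viewpoints, and 0 elsewhere. Within 20 kb of them, all libraries together listed 4 and 7 other interactions, so each stood alone. The other 32 fragments of the set had 6 to 29 interactions and the 34 lay on 14 chromosomes, with at most 5 on 1 chromosome. Around chr17:26438451-26438723, by comparison, 88 other interactions were listed within 20 kb, 68 of them on chr17:26425029-26425449.

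Among the same 168 fragments in 6 or more of the 42 lists, a smaller number was found in all preparations of one genotype alone. Fragments in fewer lists were not searched for this. The 8 of the 168 found in all WT and no D3839 preparations had 11 to 77 interactions (median 22.5). Their leading fragment, chr7:68548946-68549205, had 56, 9 and 12 in WT preparations 1 to 3. The 11 of the 168 found in all D3839 and no WT preparations had 7 to 38 interactions, led by chr1:190075828-190077925 with 14, 9 and 15. These fragments were selected by where they were listed, so their absence from the other genotype is a description and was not tested.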

How the data were processed

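Capture-C libraries were made by the study with DpnII, trimmed with Trim Galore and mapped with Bowtie to mm9, per the submitters' processing notes, which name no versions. The deposited tables give, per library, each restriction fragment's position, its viewpoint and the count of unique interactions that the authors derived; these counts are not normalized. Fragments on chromosomes X, Y and M were left out, and those on chromosome 11 served only for the trans share and fragment lengths. The members, rules and lists were chosen with earlier results of these data known.

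Each trans fragment was counted once per library and viewpoint and assigned by its midpoint to bins of 1 Mb. Counts per bin and chromosome, summed over the viewpoints of a capture, were tested with edgeR 4.0.16 (quasi-likelihood, library size the total of trans fragments, bins with at least 20 fragments, Benjamini-Hochberg), with DESeq2 1.42.0 as an alternative (mean dispersion fit for the 18 chromosomes); the script was tested on simulated data. Single values per library were compared with exact two-sided permutation tests. The exact permutation p-values rest on the spread between these 3 differentiations per genotype. The edgeR p-values rest on the counting error of fragments as well, so they do not measure the spread between differentiations alone. How much each part adds was not tested. A fragment stands for 1 or more ligation events, so lists saturate with depth, and short fragments or repeats that map poorly lower what can be listed.

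Features were named by rule: chromosomes called and the 3 highest and 3 lowest in density, per capture up to 3 called bins in each direction by smallest p, the 5 densest bins, bins in all 14 lists of 25, β-globin fragments in 2 or more libraries and the 5 most listed fragments. Other named fragments were chosen after values were seen, as the text says. Both CTCF sites were read from the study's supplementary methods.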

Additional observations from a re-analysis of the deposited data

Results flagged for a closer look

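The difference between genotypes in repeated interactions ran in opposite directions for different viewpoints. The percent of trans fragments with 2 or more interactions was lower in D3839 for R1 and R2 (D3839 minus WT, -22.5 and -26.8 percentage points) and higher for Rhbdf1 and Mpg (3.59 and 1.97 points), while Il9r, Snrnp25 and Nprl3, from the same libraries as Rhbdf1 and Mpg, were lower in D3839 (-1.75, -1.80 and -3.61 points), with every library of one genotype on one side of every library of the other. The difference between the viewpoints was not tested.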

How the results depend on the processing

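With 3 libraries per genotype the exact tests cannot pass 0.05, and with few β-globin fragments per list the ratios of the sparse promoters are not set by these data. Called 1 Mb bins in the R1 capture (39) came to 15 with DESeq2, which gave an adjusted p to 114 of the 2269 bins, 4 with interactions as deposited, 19 without fragments listed in 2 or more libraries, 9 with fragments of 200 to 600 bases and 7 to 31 with single libraries left out. The 8 chromosomes called there came to 4 with DESeq2, 1 with interactions as deposited, 4 with the replicate block and 4 with fragments of 200 to 600 bases (6 to 9 with single libraries left out). In the promoter capture, the 0 called bins came to 3 with bins of 5 Mb, 1 with interactions as deposited and 1 with the replicate block, and the 1 called chromosome to 3 with interactions as deposited, 2 with the replicate block, 2 with fragments of 200 to 600 bases and 1 to 3 with single libraries left out. Chromosome 15 in the R1 capture turned to -0.0010 (log2) with interactions as deposited. The R2 trans share difference of -11.0 points turned to 2.22 with cis interactions in the denominator and 0.318 without shared fragments. It was -8.97 with interactions counted for both trans and cis. Mpg at β-globin (0.12) turned to -0.43 without shared fragments and lay between -0.20 and 0.65 with single libraries left out. The β-globin difference between genotypes in the promoter capture (0.112 per 10000) turned to -0.0221 with interactions as deposited and -0.0469 without shared fragments, and lay between -0.0428 and 0.338 with single libraries left out. The cause of these changes was not tested. Same-numbered libraries of WT and D3839 have only the number in common in the labels. The deviations of their bins correlated between -0.0030 and 0.061 over the 3 numbers and 2 captures. The median bin held 63 fragments in the R1 capture and 97 in the promoter capture over 6 libraries. At such counts the correlation cannot decide whether same-numbered libraries share a batch. The replicate block gave 42 bins in the R1 capture.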
